A study of Homo sapiens with 6 samples.

Results

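Interferon-stimulated genes are the genes that cells switch on after interferon binds its receptor, and 45 of them were chosen by name for this account. Of these, 44 had a probe on the Illumina bead arrays and 42 were tested, out of 13022 genes tested in all. A gene was tested when a probe of it was detected, with a detection p-value below 0.05, on at least 2 of the 6 arrays, and its brightest such probe stood for it. The arrays measured total RNA of 2 human breast cancer cell lines grown in culture. MDA-MB-231, a mesenchymal-like line without hormone receptors, had 2 arrays labelled with hairpin shRNA-1 against SETDB1 and 2 labelled with a control hairpin (shCtrl). MDA-MB-453, a line of luminal type with androgen receptor, had 1 array labelled shRNA-3 and 1 labelled shCtrl, so line and hairpin changed together. All the groups carry a hairpin. The labels say neither whether replicates came from separate cultures nor whether the cells were clones, so the p-values rest on array-to-array spread that may be technical.

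Type I interferons bind IFNAR1 and IFNAR2, and the kinases JAK1 and TYK2 then phosphorylate STAT proteins. IRF9 and STAT2 act in a complex on a DNA element called the interferon-stimulated response element, which lies near the start of many of these genes. Many of the products block viruses, by binding viral RNA, cutting RNA or holding particles at the membrane, and others are sensors and transcription factors that amplify the response. In tumour cells a set of these genes is often expressed without added interferon. SETDB1 is an enzyme that trimethylates lysine 9 of histone H3, a mark that silences endogenous retroviruses and many genes.

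Response elements are shown first for the genes the results turn on. RefSeq promoters of the build GRCh38.p14, 250 bases before to 50 after the gene start, matched 36 of the 45 genes. They were searched on both strands for the core of the response element, GAAA followed by any 2 bases and GAAA, where matches may overlap, and for TTCNNNGAA, the letters of a STAT dimer site, which can also overlap the first. The first was found in 23 of the 36, or 63.9%, and in 3.65% of all 27305 promoters of the same length. The second was found in 9 of the 36, or 25.0%, against 7.88% of all. The 180 bases before the start are printed 5′ to 3′ on the gene's strand, with whole matches to the response element core or its reverse complement in capitals. DDX60 (chr4:168318753-168318932, minus strand) and IFI27 (chr14:94110556-94110735, plus strand) are shown because they were higher in both lines, BST2 (chr19:17405631-17405810, minus strand) and IFITM1 (chr11:313860-314039, plus strand) because they rose in MDA-MB-231 and differed between the lines, and IFIT1 (chr10:89392443-89392622, plus strand) and IFIT5 (chr10:89414388-89414567, plus strand) because they did not rise there.
DDX60: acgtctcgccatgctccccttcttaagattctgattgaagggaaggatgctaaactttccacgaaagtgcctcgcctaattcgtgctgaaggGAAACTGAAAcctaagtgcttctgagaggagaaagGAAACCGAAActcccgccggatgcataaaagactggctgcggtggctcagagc
IFI27: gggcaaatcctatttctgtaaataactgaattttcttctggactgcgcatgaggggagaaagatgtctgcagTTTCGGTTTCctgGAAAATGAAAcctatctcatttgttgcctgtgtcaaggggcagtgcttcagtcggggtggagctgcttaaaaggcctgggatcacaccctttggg
BST2: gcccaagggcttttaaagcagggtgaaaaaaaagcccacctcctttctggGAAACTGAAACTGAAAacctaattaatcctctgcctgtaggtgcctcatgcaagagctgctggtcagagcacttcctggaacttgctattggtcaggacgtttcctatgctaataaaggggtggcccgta
IFITM1: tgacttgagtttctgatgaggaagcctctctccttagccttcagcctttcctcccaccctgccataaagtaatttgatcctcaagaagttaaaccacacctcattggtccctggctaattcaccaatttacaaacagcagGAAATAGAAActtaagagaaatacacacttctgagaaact
IFIT1: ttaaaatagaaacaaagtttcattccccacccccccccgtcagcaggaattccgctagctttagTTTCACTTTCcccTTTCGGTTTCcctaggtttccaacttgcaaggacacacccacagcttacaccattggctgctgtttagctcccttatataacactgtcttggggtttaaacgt
IFIT5: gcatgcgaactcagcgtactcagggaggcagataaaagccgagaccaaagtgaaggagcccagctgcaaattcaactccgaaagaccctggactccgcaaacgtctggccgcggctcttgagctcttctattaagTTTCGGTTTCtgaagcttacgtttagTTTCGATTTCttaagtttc
Matches to the core thus stood in the promoters of genes that rose and of genes that did not. Of the 19 genes with a promoter that rose in MDA-MB-231, 13 held the core, as did 8 of 13 that were not called and both that fell. TTCNNNGAA was in 8 of the 19 that rose, 1 of the 13 not called and 0 of the 2 that fell. A match describes the letters only.

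For SETDB1, the hairpins' target, no measurable loss of signal was seen. On a log2 intensity scale it read 7.40 and 7.42 on the MDA-MB-231 control arrays and 7.29 and 7.21 on the shRNA-1 arrays, a difference of -0.16 ± 0.16 (SE; limma adjusted p = 0.493). The MDA-MB-453 arrays read 8.98 with the control hairpin and 8.73 with shRNA-3. The 6 arrays detected between 19230 and 21238 of 48107 probes. The mean log2 intensity of 10 MDA-MB-231 markers was 10.6 to 11.9 on the arrays of that line and 4.95 to 4.97 on the others, but the 2 arms of MDA-MB-231 were not alike in them. All groups are named below as labelled, and differences are shRNA minus control.

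Of the 10 MDA-MB-231 markers, 4 rose and 0 fell on the shRNA-1 arrays, where 19.5% and 19.7% of all genes did. S100A4, a calcium-binding protein of motile cells, read 6.11 and 5.40 on the controls and 14.49 and 14.37 on the shRNA-1 arrays, a rise of 8.67 ± 0.24 (409-fold; limma adjusted p = 2.07e-07). EPHA2, a receptor tyrosine kinase, and the proteases MMP14 and PLAU rose by 1.66, 1.36 and 1.05 (adjusted p = 1.48e-04, 4.50e-04 and 0.00152). Markers of other cells moved as well. KRT19, an epithelial keratin high in MDA-MB-453, rose by 4.48 ± 0.21 (adjusted p = 2.18e-06). SPDEF and AGR2, also high there, were below detection on the MDA-MB-231 controls and at least 24.2-fold and 20.1-fold higher on the shRNA-1 arrays (adjusted p = 6.90e-07 and 8.35e-07), though a second AGR2 probe gave 0.46 (adjusted p = 0.094). FOXA1, a luminal transcription factor, read 8.01 and 8.53 on the controls and was below detection on the shRNA-1 arrays, at least 11.2-fold lower (adjusted p = 4.73e-06). Mean log2 intensities of the 9 MDA-MB-453 markers tested were 6.84 and 6.81 on the shRNA-1 arrays, 5.61 and 5.60 on the controls, and 11.2 and 11.8 in MDA-MB-453. PIP, RAB25 and TFAP2B were below detection throughout MDA-MB-231. The 2 MDA-MB-453 arrays were not alike in all of these markers either. SCGB2A2 read 5.50 on the control array and 8.94 on the shRNA-3 array, a difference of 3.45. That exceeded the largest MDA-MB-453 difference of an interferon-stimulated gene, 1.80. SCGB2A2 was the 1 of the 9 markers higher by 2-fold there, and 0 were lower by 2-fold, where 1.51% and 1.56% of all genes were. Of 7 leukocyte markers tested, 1 rose and 0 fell in MDA-MB-231, against 19.5% and 19.7% of all genes. The 1 was CD14, the co-receptor for bacterial lipopolysaccharide, which rose by 4.05 ± 0.19 (adjusted p = 2.17e-06). The mean log2 intensity of the 7 was 6.62 and 6.58 on the shRNA-1 arrays, 6.04 and 5.86 on the controls, and 4.95 and 5.37 on the MDA-MB-453 control and shRNA-3 arrays. The gap between the MDA-MB-231 arms in that mean lay mostly in CD14. CD68 read 11.21 to 11.45 on all arrays of that line and was not called. CD3E was not detected on any array, and PTPRC, the pan-leukocyte CD45, had 3 probes detected on none and 1 detected on 1 array. The changes of S100A4, KRT19, CD14, SPDEF and AGR2 exceeded that of any interferon-stimulated gene. The hairpin and other differences between the cells of the 2 arms cannot be told apart, and the part of these shifts in the interferon-stimulated results was not tested.

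In MDA-MB-231 the shRNA-1 arrays carried more RNA of most interferon-stimulated genes. Of 42 genes, 25 rose and 2 fell (limma, two-sided, Benjamini-Hochberg adjusted p below 0.05 over 13022 genes). Across all genes tested, 19.5% rose and 19.7% fell, while 59.5% of these genes rose and 4.76% fell. The interferon-stimulated genes were chosen with earlier results of these data known, so their shares here and in MDA-MB-453 are not independent support. The median difference of the 42 was 0.66, against -0.01 over all genes, and it ranged from -0.86 for MX1 to 3.73 for BST2. By 2-fold or more, 14 rose and 0 fell, where 8.99% and 7.70% of all genes did so. Counted among the 25 and the 14 is SAMD9L, detected on the shRNA-1 arrays alone, which passed the detection rule only through them. By any amount 34 were higher, against 49.5% of all genes. Both shRNA-1 arrays lay above both controls for 29 of the 42 and below both for 5, against 34.1% and 34.8% of all genes. Array signal is a bulk measure and cannot tell a change in every cell from a change in some of them.

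With each MDA-MB-231 array left out in turn, 15 of the 27 calls held under all 4 omissions. These were IRF7, IFIH1, DDX60, OAS2, OASL, IFITM1, IFITM3, BST2, GBP2, ISG20, SAMD9L, IFI27, IFI35, IFI44 and LGALS3BP. The number that rose was 22 without shRNA-1 replicate 1, 25 without replicate 2, 18 without control replicate 1 and 17 without control replicate 2. When 1 control array remained, it was assumed to vary like the other groups. SAMD9L passed the detection rule only through the shRNA-1 arrays, so its call is not independent of that rule. Fits with fewer arrays have fewer residual degrees of freedom.

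**Figure D1:**
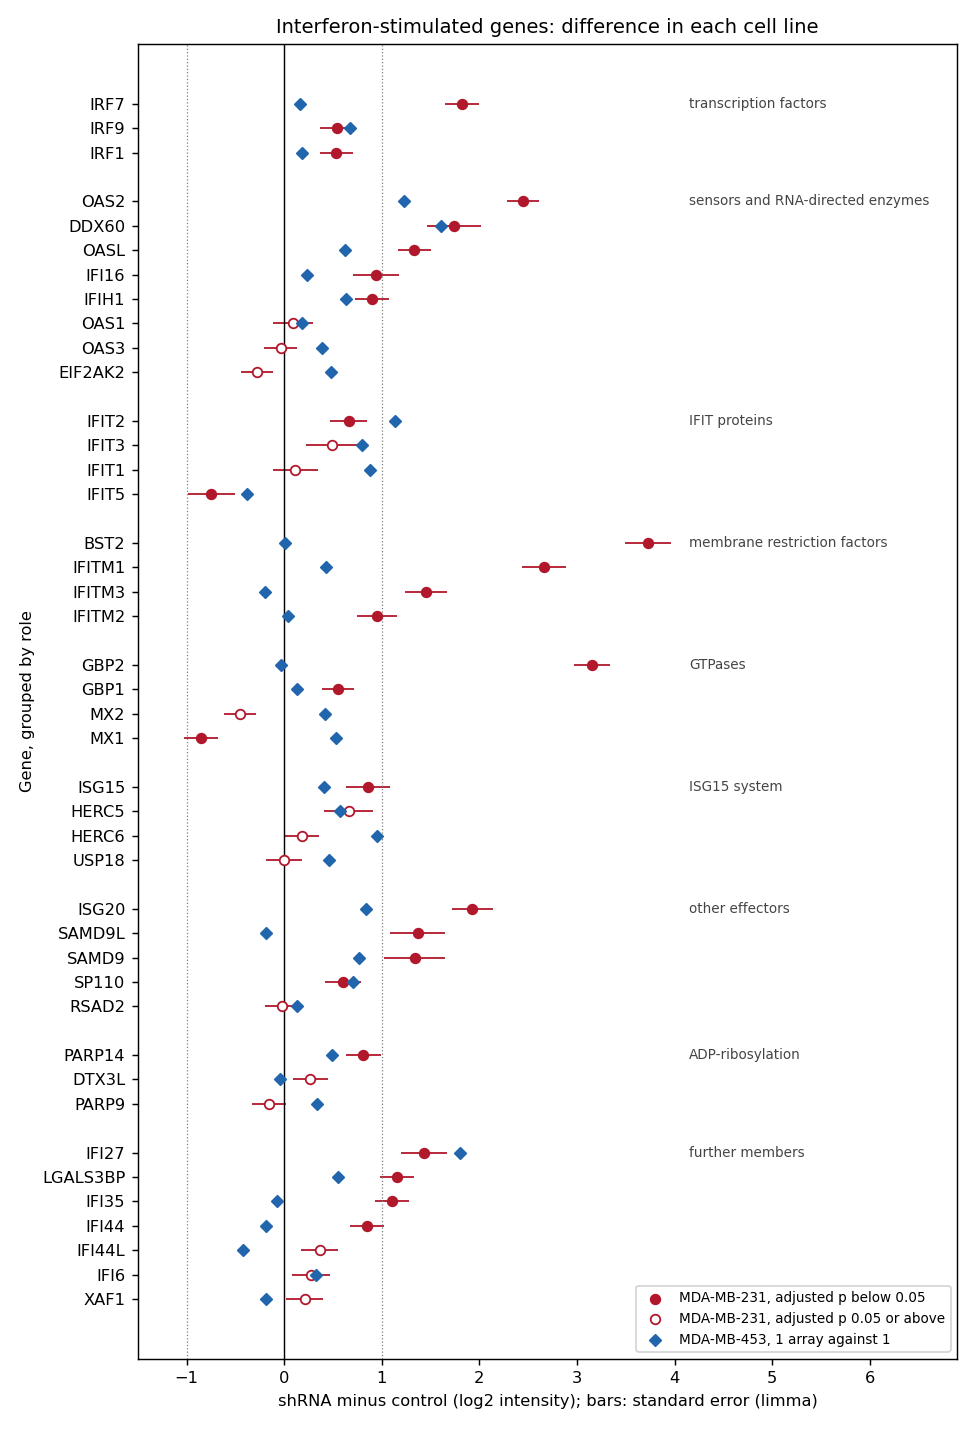
Difference between shRNA and control arrays in log2 intensity for the 42 genes tested, grouped by role. Circles with standard error bars are MDA-MB-231 (2 arrays against 2, filled where the adjusted p is below 0.05), diamonds are MDA-MB-453 (1 array against 1), and dotted lines mark 2-fold; BST2 and GBP2 stand furthest right among circles, and IFI27 and DDX60 among diamonds.

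All 3 transcription factors measured rose in MDA-MB-231. IRF7, which drives interferon gene expression and is itself inducible, read 6.97 and 6.73 on the control arrays and 8.72 and 8.62 on the shRNA-1 arrays. The groups lay far apart, with a rise of 1.82 ± 0.17 (SE; 3.53-fold; limma adjusted p = 1.08e-04), and a further IRF7 probe detected on all arrays gave 1.58. In MDA-MB-453, IRF7 read 10.45 and 10.60, and the difference of 0.16 was smaller than that in MDA-MB-231 by 1.66 ± 0.30 (interaction adjusted p = 0.00928). IRF1 and IRF9, the DNA-binding partner of the STAT proteins, rose by 0.53 and 0.54 (adjusted p = 0.0378 and 0.037). Both of these calls were lost in 3 of the 4 fits that left out an array, with adjusted p up to 0.209 and 0.197, the omission that kept them being that of shRNA-1 replicate 1, and under median scaling (0.124 and 0.112). In MDA-MB-453 IRF9 was higher by 0.68 and IRF1 by 0.18. STAT2 was not analysed here.

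Among sensors and RNA-directed enzymes, 5 of 8 rose in MDA-MB-231 and none fell. OAS2, an oligoadenylate synthetase that activates RNA cleavage by RNase L, read 5.40 and 5.51 on the controls and 7.95 and 7.86 on the shRNA-1 arrays. It read 7.58 on the MDA-MB-453 control array and 8.80 on the shRNA-3 array. The shRNA array was thus the higher in each line, with a rise of 2.45 ± 0.17 (5.46-fold; adjusted p = 1.51e-05) in MDA-MB-231 and a difference of 1.22 in MDA-MB-453, and these sizes differed (interaction adjusted p = 0.026). A dimmer OAS2 probe, detected on 5 arrays, gave 1.24 and 0.71. The dimmer OAS2 probe was below detection on MDA-MB-231 control replicate 1, so 1.24 is not an exact size. DDX60, a helicase that promotes RNA sensing, read 4.48 and 4.98 on the MDA-MB-231 controls, where it was detected on 1 of 2, and 6.87 and 6.07 on the shRNA-1 arrays. Its 2 shRNA-1 arrays were apart by 0.80, and both stood above the controls, with a rise of 1.74 ± 0.28 (adjusted p = 0.0016). In MDA-MB-453 DDX60 was not detected on the control array at 4.89 and read 6.49 with shRNA-3, at least 2.995-fold higher.

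OASL, an oligoadenylate synthetase-like protein without the enzyme activity, read 5.57 and 5.55 on controls and 6.97 and 6.82 on shRNA-1 arrays. This was a rise of 1.33 ± 0.17 (adjusted p = 4.50e-04), with a difference of 0.62 in MDA-MB-453, while a dimmer OASL probe gave 0.45 (adjusted p = 0.0668) and 0.18. The dimmer OASL probe was below detection on the MDA-MB-231 controls, so 0.45 is not an exact size. IFIH1, the sensor of long double-stranded RNA also called MDA5, rose by 0.90 ± 0.17 and was higher by 0.63 in MDA-MB-453. IFI16, a sensor of DNA, rose by 0.94 ± 0.24 (adjusted p = 0.0137), and without control replicate 1 its adjusted p was 0.0986. The neighbour OAS3 did not rise with OAS2, and the reading of OAS1 depended on the probe. OAS3 differed by -0.04 (95% confidence interval -0.42 to 0.35). On the brightest OAS1 probe the difference was 0.09 (-0.38 to 0.56), but 2 dimmer OAS1 probes detected on 4 arrays each gave 1.07 and 0.67. Both dimmer probes were below detection on the MDA-MB-231 controls, so 1.07 and 0.67 are differences of measured signal and not exact sizes. The dimmer probe at 1.07 was called higher in the limma fit of second probes (adjusted p = 0.00149), so the OAS1 probes disagree. EIF2AK2, the kinase PKR that halts translation on double-stranded RNA, differed by -0.28 (-0.65 to 0.09) in MDA-MB-231 and by 0.48 in MDA-MB-453.

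The 4 IFIT genes, neighbours on chromosome 10 whose products bind foreign RNA, were split. IFIT2 read 7.97 and 7.87 on controls and 8.76 and 8.39 on shRNA-1 arrays, a rise of 0.66 ± 0.19 (adjusted p = 0.0228). On the MDA-MB-453 arrays it read 6.16 and 7.29, a difference of 1.13. The MDA-MB-231 call of IFIT2 was lost without shRNA-1 replicate 1 (adjusted p = 0.0968), without control replicate 1 (0.0856), without control replicate 2 (0.136) and under median scaling (0.0539). IFIT5 fell by 0.75 ± 0.24 (adjusted p = 0.0376), from 5.71 and 6.41 to 5.43 and 5.20, a call lost without shRNA-1 replicate 2 (0.065), without control replicate 2 (0.282), with the background offset of 50 (0.0802) and with no detection filter (0.0969). IFIT1 and IFIT3 differed by 0.11 (-0.41 to 0.64) and 0.49 (-0.12 to 1.09), and in MDA-MB-453 IFIT1 was higher by 0.88 and IFIT3, below detection on the control array, at least 1.24-fold higher. Further IFIT3 probes, detected on 2 and 4 arrays, gave 0.63 and 0.90 in MDA-MB-231, so the size there depended on the probe. The probe at 0.63 was detected on the shRNA-1 arrays alone and passed the detection rule only through them, so 0.63 is not an exact size. In MDA-MB-453 these further probes were below detection on both arrays, and no size can be read from them. Without shRNA-1 replicate 2 the IFIT3 difference was 0.91 (adjusted p = 0.00318).

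Every membrane restriction factor on the list rose in MDA-MB-231, and none reached 2-fold in MDA-MB-453. BST2, also called tetherin, which holds budding virus at the cell surface, read 7.15 and 6.67 on the controls and 10.88 and 10.39 on the shRNA-1 arrays. In MDA-MB-453 it read 11.54 and 11.55. The rise in MDA-MB-231 was 3.73 ± 0.23 (13.2-fold; adjusted p = 9.14e-06), whereas the MDA-MB-453 arrays were apart by 0.01, and the lines differed by 3.72 ± 0.40 (interaction adjusted p = 7.45e-04). IFITM1, a membrane protein that hinders viral entry, read 7.77 and 7.39 on controls and 10.50 and 9.97 on shRNA-1 arrays, a rise of 2.66 ± 0.23 (adjusted p = 5.85e-05). Its MDA-MB-453 control array was below detection, and it was at least 1.21-fold higher with shRNA-3. IFITM3 read 11.82 and 11.39 against 13.26 and 12.86, a rise of 1.45 ± 0.22 (adjusted p = 0.00108), and was 5.75 and 5.56 on the MDA-MB-453 arrays. IFITM2 rose by 0.95 ± 0.20 (adjusted p = 0.00644, and 0.0643 without control replicate 2). The 3 IFITM genes are adjacent on chromosome 11 and alike in sequence, so their probes may share transcripts and how much each rose is uncertain. Both IFITM1 and IFITM3 differed between the lines (interaction adjusted p = 0.00804 and 0.0227).

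**Figure D2:**
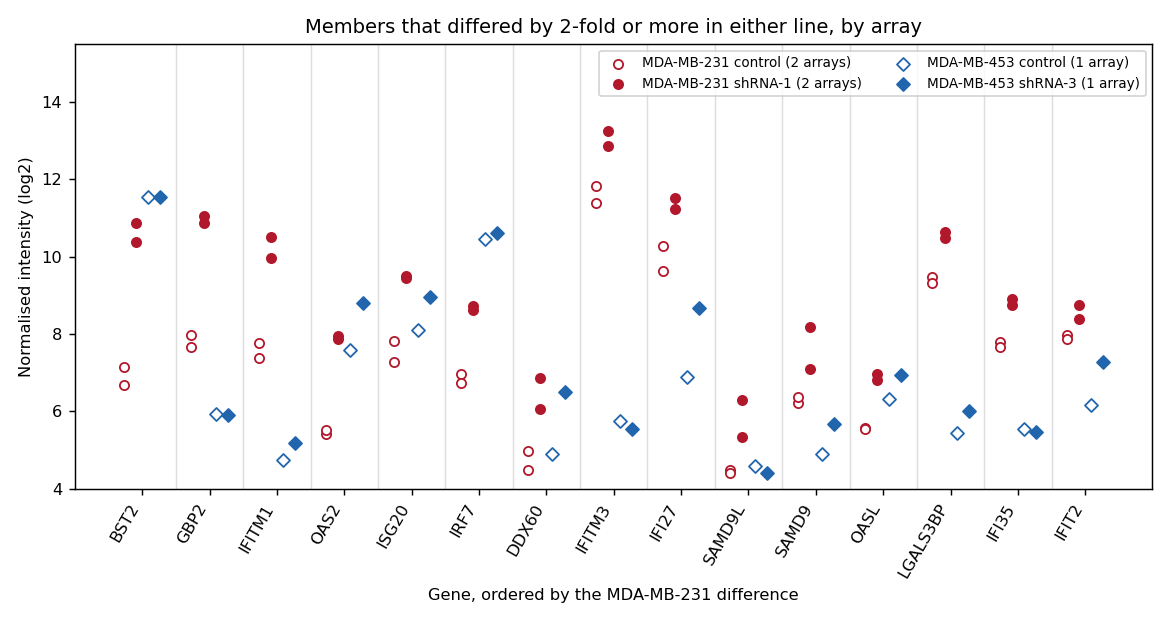
Normalised log2 intensity on each of the 6 arrays for the 15 genes that were called with 2-fold or more in MDA-MB-231 or were apart by 2-fold or more in MDA-MB-453. Open symbols are controls and filled symbols shRNA arrays; for BST2 the shRNA-1 arrays, at 10.88 and 10.39, lie well above the MDA-MB-231 controls and below both MDA-MB-453 arrays.

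The GTPases moved in opposite directions in MDA-MB-231. GBP2, a guanylate-binding protein that attacks vacuoles of intracellular pathogens, read 7.97 and 7.65 on controls and 11.07 and 10.87 on shRNA-1 arrays, and 5.93 and 5.90 in MDA-MB-453. That is a rise of 3.15 ± 0.19 (8.90-fold; adjusted p = 6.90e-06), larger than in MDA-MB-453 by 3.18 ± 0.32 (interaction adjusted p = 5.33e-04). Its neighbour GBP1 rose by 0.55 ± 0.16 (adjusted p = 0.027), a call lost in 3 of the 4 fits that left out an array (adjusted p up to 0.139) and under median scaling (0.0753), and a further GBP1 probe gave 0.06. MX1, a dynamin-like GTPase that traps viral nucleocapsids and a common marker of interferon response, read 8.62 and 8.40 on controls and 7.71 and 7.59 on shRNA-1 arrays. It fell by 0.86 ± 0.17 (adjusted p = 0.00508, and 0.0546 without control replicate 1) in MDA-MB-231 and was higher by 0.53 in MDA-MB-453, a difference between lines of -1.39 ± 0.30 (interaction adjusted p = 0.02). MX2, beside it on chromosome 21, was not detected on the shRNA-1 arrays and was at least 1.12-fold lower there (adjusted p = 0.0585).

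Of the ISG15 system, which attaches the ubiquitin-like ISG15 to proteins, 1 of the 4 listed members, ISG15 itself, passed the test. ISG15 read 10.47 and 10.01 on controls and 11.32 and 10.87 on shRNA-1 arrays, a rise of 0.86 ± 0.22 (adjusted p = 0.0162, and 0.14 without control replicate 2). HERC5, the main ligase for ISG15, differed by 0.66 (0.08 to 1.24; adjusted p = 0.0699, and 0.00231 without shRNA-1 replicate 2), and HERC6 by 0.18 (-0.21 to 0.57). The MDA-MB-453 differences of ISG15, HERC5 and HERC6 were 0.40, 0.57 and 0.95. USP18, the protease that removes ISG15 and dampens receptor signalling, was below detection on all 4 MDA-MB-231 arrays and was 8.15 and 8.60 on the MDA-MB-453 control and shRNA-3 arrays.

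Among other effectors, 4 of 5 tested rose in MDA-MB-231. ISG20, an exonuclease of RNA, read 7.82 and 7.28 on controls and 9.51 and 9.45 on shRNA-1 arrays, a rise of 1.93 ± 0.21 (adjusted p = 2.08e-04), and 8.11 and 8.95 on the MDA-MB-453 arrays. SAMD9, a restriction factor of poxviruses, read 6.23 and 6.37 against 8.18 and 7.09, and its neighbour SAMD9L read 4.48 and 4.41 against 6.29 and 5.33. In both genes the shRNA-1 arrays were far from each other but above both controls, with rises of 1.34 ± 0.31 (adjusted p = 0.0097, and 0.0632 without control replicate 1) and of at least 2.01-fold (adjusted p = 0.00553), as SAMD9L was not detected on either control. SAMD9L was detected on the 2 shRNA-1 arrays alone, so it passed the detection rule only through the group where it was high. SAMD9 was not detected on the MDA-MB-453 control array and was at least 1.69-fold higher with shRNA-3. SP110, a nuclear body protein, rose by 0.60 ± 0.18 (adjusted p = 0.031), with 3 further probes at 0.37 to 0.71, a call lost in 3 of the 4 fits that left out an array (adjusted p up to 0.147) and under median scaling (0.0681), and was higher by 0.70 in MDA-MB-453. RSAD2, or viperin, which makes a chain-terminating nucleotide, was detected on 1 MDA-MB-231 array and differed by -0.02 (-0.42 to 0.38). CMPK2, its neighbour, was detected on 0 arrays and TRIM22 on 1, so neither was tested.

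PARP9, PARP14 and DTX3L lie together on chromosome 3 and act in ADP-ribosylation and ubiquitination. PARP14 rose by 0.81 ± 0.18 (adjusted p = 0.00791, and 0.0634 without control replicate 2), while PARP9 differed by -0.16 (-0.55 to 0.23) and DTX3L, its partner, by 0.27 (-0.14 to 0.67). The remaining 7 genes have less settled roles, and 4 of them rose. IFI27, a mitochondrial protein linked to apoptosis, read 10.27 and 9.63 on controls and 11.53 and 11.23 on shRNA-1 arrays, and 6.88 and 8.68 on the MDA-MB-453 arrays. Its rise was 1.43 ± 0.24 (adjusted p = 0.00183), and its MDA-MB-453 difference of 1.80 was the largest of the 42. LGALS3BP, a secreted galectin-binding glycoprotein, read 9.49 and 9.31 on controls and 10.63 and 10.47 on shRNA-1 arrays, and IFI35 read 7.81 and 7.67 against 8.92 and 8.76. They rose by 1.15 ± 0.17 (adjusted p = 0.00113) and 1.10 ± 0.17 (adjusted p = 0.00133), with MDA-MB-453 differences of 0.55 and -0.07. IFI44 rose by 0.85 ± 0.17 and was -0.18 in MDA-MB-453. IFI6, IFI44L and XAF1 differed by 0.27, 0.36 and 0.21, with intervals that include 0.

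Within MDA-MB-453, with 1 array per arm and no replicate check, the interferon-stimulated genes again leaned upward. Of 42, 33 were higher with shRNA-3 by any amount, against 52.0% of all genes, and the median difference was 0.41 against 0.02 over all. By 2-fold or more, 4 were higher and 0 lower, where 1.51% and 1.56% of all genes were. By 1.5-fold, 13 were higher and 0 lower, where 8.42% and 7.95% of all genes were. Under median scaling the MDA-MB-453 median of all genes moved to 0.26, that of these genes was 0.71, and 9 were higher by 2-fold.

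Higher in both lines, by the test in MDA-MB-231 and by at least 2-fold in MDA-MB-453, were DDX60, OAS2, IFI27 and IFIT2. These 4 of 42 are 9.52%, and 0.438% of all genes met the same rule. At 1.5-fold in MDA-MB-453 the count was 10, or 23.8% against 2.39% of all genes, adding IRF9, IFIH1, OASL, ISG20, SAMD9 and SP110. None of the 42 fell in MDA-MB-231 and was lower in MDA-MB-453 by 1.5-fold or by 2-fold, where 2.88% and 0.722% of all genes were. IFI27 and OAS2 met the 2-fold rule in every alternative normalisation and filter, DDX60 did not with a background offset of 50 nor when detection on all 6 arrays was required, and IFIT2 did not without background correction, with the offset of 50 or under median scaling. With a second probe per gene OAS2 did not.

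An additive model of line and arm, with 3 shRNA arrays against 3 controls, called 0 of the 42 after adjustment and 5 of 13022 genes in all, 0.0384% of them. At an unadjusted limma p below 0.05, 25 of the 42 were higher and 1 lower, against 15.8% and 14.8% of all genes. Most arrays in this model are those of MDA-MB-231, so the count is not separate from the result there. Nor does it mean a rise in both lines. BST2 and GBP2 are among the 25, with MDA-MB-453 differences of 0.01 and -0.03. The lowest adjusted p of the 42, 0.0564, was shared by DDX60, OAS2, OASL, ISG20 and IFI27, whose differences across lines were 1.70, 2.04, 1.10, 1.56 and 1.55. The number called in this model was 4 without background correction, 2 with the offset of 50, 1 under median scaling and 9 among genes detected on all 6 arrays.

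The interaction contrast tested whether the difference in MDA-MB-231 departed from that in MDA-MB-453, taking the single MDA-MB-453 arrays to vary like the MDA-MB-231 ones. IFITM1 was below detection on the MDA-MB-453 control array, so its difference there is a bound. It called 8 of the 42, or 19.0%, against 13.6% of all genes. Larger in MDA-MB-231 were 7, BST2, GBP2, IFITM1, IRF7, IFITM3, OAS2 and IFI35, against 7.30% of all genes, and the reverse was MX1, against 6.27%. The count was 10 without shRNA-1 replicate 1, 14 without shRNA-1 replicate 2, 5 without control replicate 1 and 3 without control replicate 2. For BST2 and IRF7 the MDA-MB-453 control array already read 11.54 and 10.45, above every MDA-MB-231 array, while GBP2, IFITM1 and IFITM3 read lower there than on any MDA-MB-231 array.

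**Figure D3:**
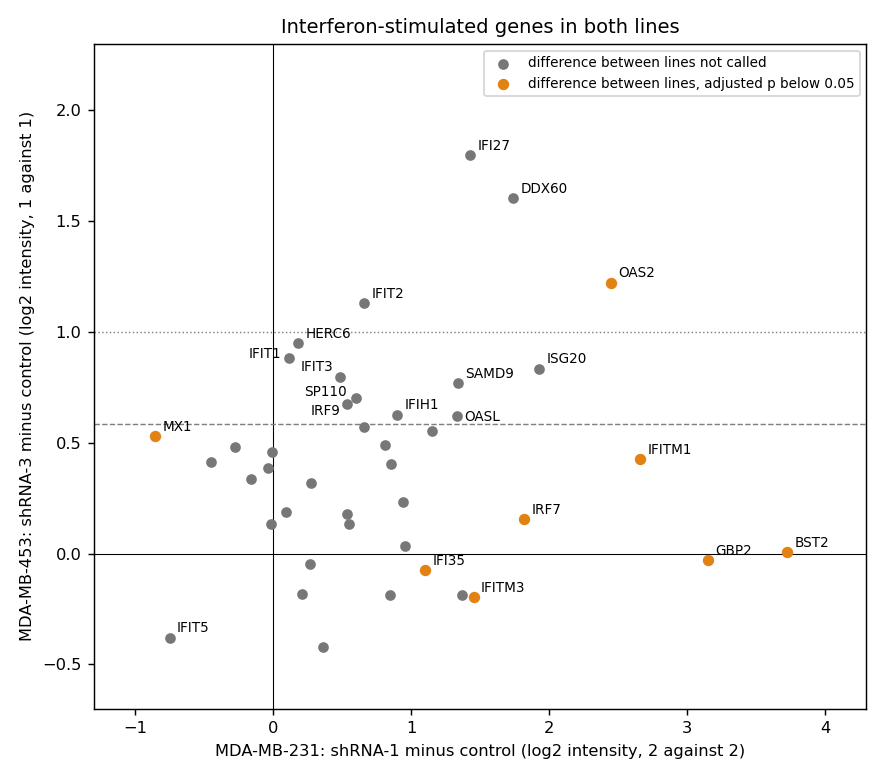
Differences of the 42 genes in MDA-MB-231 (horizontal) and MDA-MB-453 (vertical), in log2 intensity. Orange points are the 8 genes whose differences departed between the lines in the interaction test, and horizontal lines mark 2-fold (dotted) and 1.5-fold (dashed) in MDA-MB-453; DDX60, OAS2, IFI27 and IFIT2 lie above the dotted line.

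The 2 shRNA-1 arrays of MDA-MB-231 differed from each other in these genes. Replicate 1 read above replicate 2 for 36 of the 42, or 85.7%, against 51.4% of all genes, with a median gap of 0.20 against 0.01. The widest gaps were those of SAMD9 at 1.09, SAMD9L at 0.96, IFIT3 at 0.84 and DDX60 at 0.80. Between the controls, replicate 1 was above replicate 2 for 25 of the 42, against 46.5% of all genes, with a median gap of 0.07. Set against the control mean, the median of the 42 genes was 0.92 on shRNA-1 replicate 1 and 0.61 on replicate 2, against 0.00 and -0.02 over all genes, so it was positive on both.

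**Figure D4:**
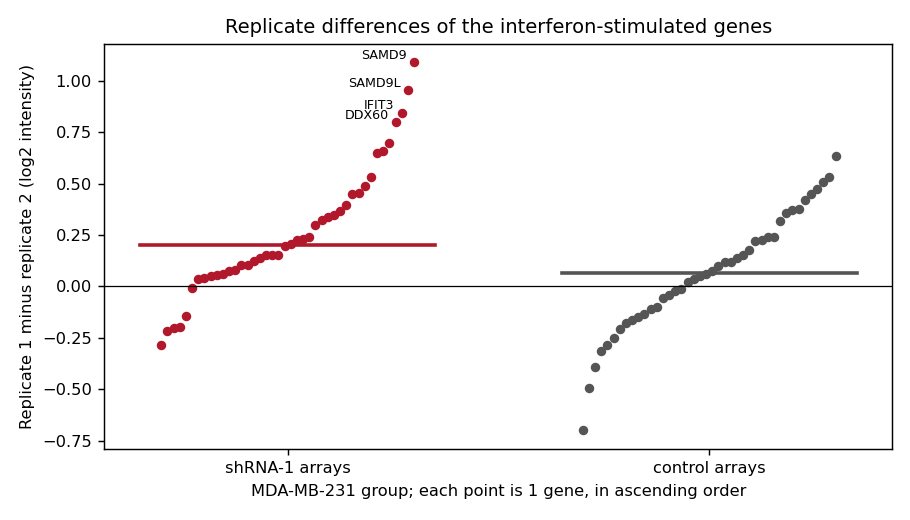
Replicate 1 minus replicate 2 in log2 intensity for each of the 42 genes, between the shRNA-1 arrays and between the control arrays of MDA-MB-231. Horizontal bars are medians, 0.20 and 0.07, and 36 of the 42 shRNA-1 points lie above 0.

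Genes that lie side by side did not always move together. The IFITM genes all rose, OAS2 rose beside OAS3 at -0.04, IFIT2 and IFIT5 went opposite ways, and GBP2 rose by 3.15 beside GBP1 at 0.55. Median differences of whole chromosomes in MDA-MB-231 ranged from -0.30 to 0.24 over the chromosomes of the 27 called genes. The smallest difference among the 27 was 0.53 in size, so each had to exceed its chromosome's median and keep its sign after it was subtracted. That comparison could not come out otherwise, and a part of regional shifts in these differences was not tested.

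Upstream of these genes, interferons themselves were at the limit of detection. Of 21 interferon genes with a probe, 17 were not detected on any array, IFNB1, IFNG, IFNK and the lambda interferons IFNL1, IFNL2 and IFNL3 among them, and IFNE alone was tested, with a difference of -0.15. Of 15 receptors, kinases and inhibitors tested, 4 rose and 1 fell, where 19.5% and 19.7% of all genes did. IFNLR1, the receptor chain for lambda interferons, was at least 2.83-fold higher (adjusted p = 1.16e-04) and was not detected on the controls. It was detected on the 2 shRNA-1 arrays alone, so it passed the detection rule only through the group where it was high. Its call is thus not independent of that rule. The phosphatase PTPN6, also not detected on the controls, was at least 2.39-fold higher (adjusted p = 1.59e-04). A second PTPN6 probe gave 0.23 (adjusted p = 0.346). The feedback inhibitor SOCS3 rose by 0.98 (adjusted p = 0.00597, and 0.0618 without control replicate 2). SOCS1 rose by 0.53 (adjusted p = 0.0496), a call lost in 3 of the 4 fits that left out an array, where its rise ran from 0.37 to 0.69. The call was also lost under median scaling, with other background settings and with no filter (0.0506 to 0.103). In the fit of second probes SOCS1 kept the same probe and value, and its adjusted p was 0.0562. IFNAR2, a chain of the type I receptor, fell by 1.11 ± 0.17 (adjusted p = 0.00135), from 7.53 and 7.38 to 6.43 and 6.27.

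Nucleic acid sensing genes showed both directions in MDA-MB-231, with 4 of 20 higher and 3 lower, against the same 19.5% and 19.7%. The DNA sensor AIM2 rose by 1.27 ± 0.20 (adjusted p = 0.00148) and the kinase IKBKE by 0.71 (adjusted p = 0.0116, or 0.0633 and 0.082 with either control left out). TLR3 was at least 1.34-fold higher (adjusted p = 0.0494) and the RNA editor ADAR rose by 0.49 (adjusted p = 0.0431). TLR3 was detected on the shRNA-1 arrays alone, so it passed the detection rule only through them. The ADAR call was lost with any 1 array left out (adjusted p = 0.0541 to 0.193), and that of TLR3 in 3 of these 4 fits (up to 0.242). Under median scaling ADAR was at 0.143, and without background correction TLR3 was at 0.0909. CGAS, the DNA sensor that makes the messenger for STING1, read 8.84 and 8.99 on controls and 7.31 and 7.53 on shRNA-1 arrays, a fall of 1.49 ± 0.17 (adjusted p = 3.19e-04). RNASEH2B, a subunit of the nuclease that clears RNA from DNA, fell by 0.88 ± 0.19 (adjusted p = 0.00615) and TRAF3, an adaptor, by 0.61 (adjusted p = 0.018, or 0.0974 and 0.0983 with control replicate 1 or 2 left out). In MDA-MB-453 the difference was -0.53 for CGAS and -1.05 for RNASEH2B, and TRAF3, below detection on the shRNA-3 array, was at least 1.31-fold lower.

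A further list of 59 interferon-inducible genes, none of them among the 45, gave 50 tested genes, of which 25 rose and 1 fell in MDA-MB-231. The list was chosen with earlier results of these data known, so it is not independent support. DDX60L, LGALS9 and IDO1, among the 25, were detected on the shRNA-1 arrays alone and passed the detection rule only through them. The median difference of the 50 was 0.49, and 0.18 in MDA-MB-453, where 2 were higher and 0 lower by 2-fold. The shares of all genes were 19.5% up and 19.7% down in MDA-MB-231, and 1.51% were higher and 1.56% lower by 2-fold in MDA-MB-453. TNFSF10, the death ligand TRAIL, was not detected on the controls at 4.20 and 4.37 and read 6.75 and 6.54 on the shRNA-1 arrays, at least 3.59-fold higher (adjusted p = 2.63e-05). GBP4, from the same family as GBP2, rose by 1.84 ± 0.18 (adjusted p = 1.12e-04), the cytokine IL15 by 1.80 ± 0.22 (adjusted p = 3.98e-04) and UBA7, the activating enzyme for ISG15, by 1.72 ± 0.16 (adjusted p = 1.05e-04). GBP4 was detected on 1 of the 2 MDA-MB-231 controls, which read 4.90 and 4.77, and on neither MDA-MB-453 array. TAP2, a peptide transporter for antigen presentation, fell by 0.76 ± 0.17 (adjusted p = 0.00804, and 0.071 without control replicate 2), though its second probe missed the threshold at -0.41 (adjusted p = 0.254). TAP2 was higher by 0.91 in MDA-MB-453.

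**Figure D5:**
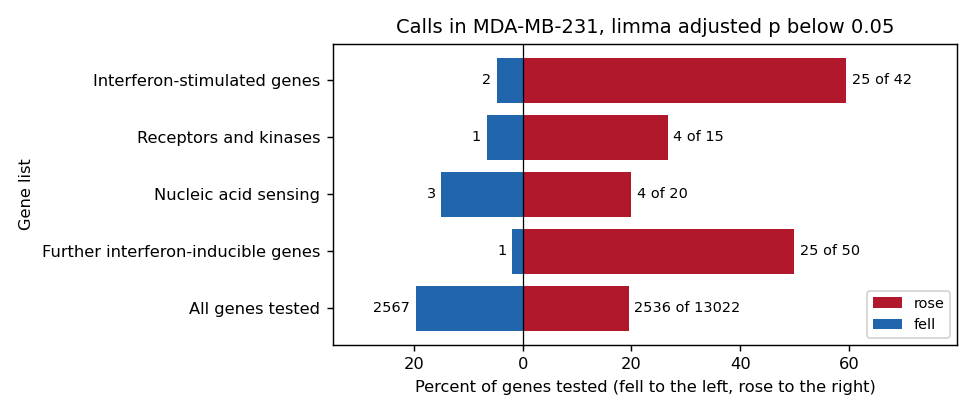
Percent of tested genes that rose (right) or fell (left) in MDA-MB-231 at a limma adjusted p below 0.05, with counts beside the bars, for the interferon-stimulated genes, 3 other lists of the pathway and all 13022 genes. The interferon-stimulated genes (25 of 42) and further interferon-inducible genes (25 of 50) extend to the right of all genes (2536), while receptors and sensing genes do not stand far from them.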

How the data were processed

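Total RNA of 6 samples was labelled with biotin and hybridised to Illumina bead arrays. The deposited intensity values of 48107 probes were not normalized, per the file headers, with a detection p-value per probe and array deposited beside each. The program that made them is not given in the sources used here. The authors' processed log2 values equalled quantile-normalized log2 intensities to within 5.26e-09, so their scale is known, and they served as an alternative.

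In R 4.3.3 with limma 3.58.1, normexp background correction used control spots inferred from the detection p-values, with an offset of 16, followed by quantile normalization and log2. Probe names came from the platform's annotation: 30113 probes had 1 gene symbol, 8 had several and 17986 had none, and 30074 matched current gene IDs. The brightest probe detected (p below 0.05) on at least 2 arrays stood for a gene. A gene detected on the 2 arrays of a single group could thus be tested through that group alone. lmFit and eBayes were fitted to the 4 group means of 6 arrays (2 residual and 6.518 prior degrees of freedom), with Benjamini-Hochberg adjustment over 13022 genes. MDA-MB-453 differences, 1 array against 1, have no replicate check and were read at 2-fold. A sample-label permutation test could not go below p = 0.333 with 2 arrays against 2, nor below 0.1 with 3 against 3, two-sided. All arrays carry the same batch label. Array number limits the precision, and a bead intensity cannot be compared between probes. A fold against a group below detection is given as "at least", the bright mean over the lowest detected signal.

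The members and the pathway lists were chosen with earlier results of these data known. Values on every array were given for members called with 2-fold or more in MDA-MB-231 or 2-fold apart in MDA-MB-453, along with some others within each role. From the pathway and marker lists, the 4 largest called changes in each direction were named. The fits were tested on simulated data. Alternatives were no background correction, an offset of 50, median scaling, the authors' values, other detection filters, a second probe, each array left out, a replicate block, MDA-MB-231 alone and a 1.5-fold limit.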

Additional observations from a re-analysis of the deposited data

Results flagged for a closer look

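For the genes named above, those listed here had a difference between shRNA and control arrays that departed between MDA-MB-231 and MDA-MB-453 by the limma interaction contrast, adjusted over 13022 genes. MDA-MB-453 has 1 array per arm and another hairpin, so the contrast borrows its spread from MDA-MB-231, and line and hairpin cannot be told apart. Values are the MDA-MB-231 difference minus the MDA-MB-453 difference in log2 intensity. Among interferon-stimulated genes the value was 3.72 for BST2, 3.18 for GBP2, 2.23 for IFITM1, 1.66 for IRF7, 1.65 for IFITM3, 1.23 for OAS2, 1.18 for IFI35 and -1.39 for MX1. Among further inducible genes it was 2.23 for TNFSF10, 2.16 for IL15, 1.58 for GBP4, 1.54 for UBA7 and -1.67 for TAP2, 5 of the 10 genes of that list that passed. Among receptors and inhibitors it was 1.65 for IFNLR1, 1.32 for PTPN6 and -1.18 for IFNAR2, and among sensors 1.38 for AIM2, 1 of 2 that passed. Among markers it was 8.33 for S100A4, 4.98 for AGR2, 4.45 for SPDEF, 4.45 for KRT19, 3.50 for CD14, 1.25 for MMP14, 1.08 for EPHA2, 1.04 for PLAU and -4.05 for FOXA1. These are differences of measured signal and not exact sizes where a probe was below detection. That was so on the MDA-MB-231 controls for TNFSF10, IFNLR1, PTPN6, SPDEF and AGR2, on 1 of these controls for GBP4, and on the shRNA-1 arrays for FOXA1. It was also so on 1 or both MDA-MB-453 arrays for IFITM1, IFNAR2, IL15, GBP4, AIM2, IFNLR1, S100A4, EPHA2, MMP14, PLAU and CD14.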

How the results depend on the processing

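Against 25 genes higher and 2 lower in MDA-MB-231, the count of lower genes was 1 with the offset of 50 and 1 with a replicate block, and the count of higher genes was 20 to 26 over the alternatives that kept all arrays. With an array left out, 17 to 25 were higher, 1 to 2 lower, 3 to 4 higher in both lines and 3 to 14 different between the lines. The 4 genes 2-fold higher in MDA-MB-453 became 2 with the offset of 50, 9 under median scaling and 13 at 1.5-fold. The 4 higher in both lines became 2 with the offset of 50 and 10 at 1.5-fold. The 0 genes called across lines became 4 without background correction and 4 with the authors' values, which are the same numbers, 2 with the offset of 50, 1 under median scaling and 9 with detection on all 6 arrays. The cause of these changes was not tested. Single differences in MDA-MB-231 that turned sign were those of genes near 0. IFIT1 was -0.025 under median scaling, and OAS3 was 0.047 on a second probe. With an array left out, IFIT1 ran from -0.21 (without shRNA-1 replicate 1) to 0.44, OAS3 from -0.13 to 0.060 (without shRNA-1 replicate 1), OAS1 from -0.16 (without control replicate 2) to 0.34, RSAD2 from -0.16 to 0.12 (without control replicate 2) and USP18 from -0.18 to 0.16, positive without shRNA-1 replicate 2 or control replicate 1. Over the single members' results, 489 alternatives kept direction and side of the threshold, 34 lost a call, 6 gained one and 8 turned sign. The replicate numbers were not taken as pairs: replicate differences of the shRNA-1 and control arrays correlated at 0.0713 across 13022 genes, which are not independent replicates, and with the replicate block 24 genes were higher, 4 higher in both lines and 8 different between the lines, with IRF9 (adjusted p = 0.0527) and IFIT5 (0.062) no longer called. Signal near background limits what can be said of TRIM22, CMPK2, RSAD2, USP18 in MDA-MB-231 and the interferons.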
